A study of Homo sapiens with 12 samples.

Results

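The genes described here are 42 genes of DNA replication and S phase, taken by gene symbol from the table of counts per gene, which holds 58051 rows, of which 34866 have at least 1 count. Each of the 42 symbols matched 1 row, and all 42 passed the filter on low counts in every comparison. They were read in 7 groups by role: licensing (10 genes), helicase activation (6), polymerases (7), clamp and clamp loader (6), single-strand binding and flap processing (6), nucleotide supply (4) and regulators (3). The cells were MDA-MB-231, an established triple-negative breast cancer line that grows as mesenchymal-like cells. RNA-seq was made after transfection with a non-targeting siRNA pool (siControl), a pool against NELFA (siNELFA), a pool against YAP1 (siYAP) or both of these pools (siNELFA+siYAP), with 3 libraries in each of the 4 groups. Every group received siRNA at 50 to 100 nM, and the study's methods give 72 h after transfection for the RNA that was sequenced (the labels name RNA at 48 h and 72 h). NELFA is a subunit of the negative elongation factor, which holds RNA polymerase II shortly after initiation, and YAP is a transcriptional co-activator that works through TEAD factors. All groups rest on pooled siRNAs in 1 line, and the methods call the 3 replicates independent and biological. The library names of siNELFA+siYAP carry the number 1 followed by an index from 1 to 3, unlike those of the other groups, and the labels do not say whether they are separate experiments, so the spread behind p-values with that group may be technical.

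DNA replication is prepared in G1, when the origin recognition complex, CDC6 and CDT1 load the MCM2 to MCM7 helicase on origins, a step called licensing. In S phase CDC45 and the GINS complex join the helicase, primase and DNA polymerase alpha start each strand, polymerases delta and epsilon extend it on the PCNA clamp, and FEN1 and LIG1 join the lagging-strand fragments. Many of these genes are transcribed late in G1 and in S phase under E2F factors, so that their RNA in a culture is known to follow the share of cycling cells as well as the output of each cell. In bulk RNA fewer cells in S phase and less RNA per cell cannot be told apart.

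The knockdowns were checked first. NELFA was at 25.3, 27.5 and 27.9 CPM (counts-per-million, with TMM scaling, replicates 1 to 3) in siControl, 9.96, 9.05 and 7.11 with siNELFA, 33.8, 25.3 and 22.2 with siYAP and 8.20, 6.73 and 6.35 with both siRNAs. YAP1 was at 302, 269 and 247 CPM in siControl, 292, 247 and 254 with siNELFA, 46.2, 45.51 and 37.7 with siYAP and 44.1, 40.7 and 40.1 with both siRNAs. Each target was lower in all libraries given its siRNA than in all others. Library totals ran from 9608145 to 18803104 counts. The line's markers VIM, CD44, AXL, MSN, CAV1 and EGFR were each at 76.4 TPM (transcripts-per-million, scaled by gene length) or more in every library, and ESR1, PGR, FOXA1, PTPRC, CD3E and VWF were at 0 in at least 1 library and never above 2.53 TPM. The other luminal markers, apart from CDH1, were detected in every library, with KRT19 at 53.9 to 144 TPM, ERBB2 at 15.7 to 29.4, EPCAM at 4.34 to 19.2 and GATA3 at 1.64 to 4.36. Of the leukocyte and endothelium markers PECAM1 was at 0.262 to 2.37 TPM and CD68 at 74.9 to 155. Replicate 1 of siControl, siNELFA and siYAP stood apart from the other libraries: MALAT1 took 3.27% to 4.64% of its counts against 0.738% to 1.07% elsewhere, CDH1 was at 7.06 to 11.97 TPM against 0 to 1.58, and the summed luminal markers (8 genes) were at 149 to 202 TPM against 81.1 to 126. The part of these differences in the results was not tested.

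In siControl, siNELFA and siYAP the level of the 42 genes differed more between replicates than between these groups. They took 0.162%, 0.403% and 0.361% of all counts in siControl replicates 1, 2 and 3, 0.114%, 0.331% and 0.286% with siNELFA, 0.140%, 0.392% and 0.340% with siYAP and 0.246%, 0.244% and 0.254% with both siRNAs. Counting error was small beside these differences: for siControl replicate 1 the 95% Wilson interval of the share was 0.160% to 0.165%, which covers counting error only. Replicate 1 was the lowest library of siControl, siNELFA and siYAP, and within each replicate number siNELFA was below siYAP and siYAP below siControl. The 3 siNELFA+siYAP libraries were close to each other and lay between replicate 1 and the other replicates of every other group.

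**Figure D1:**
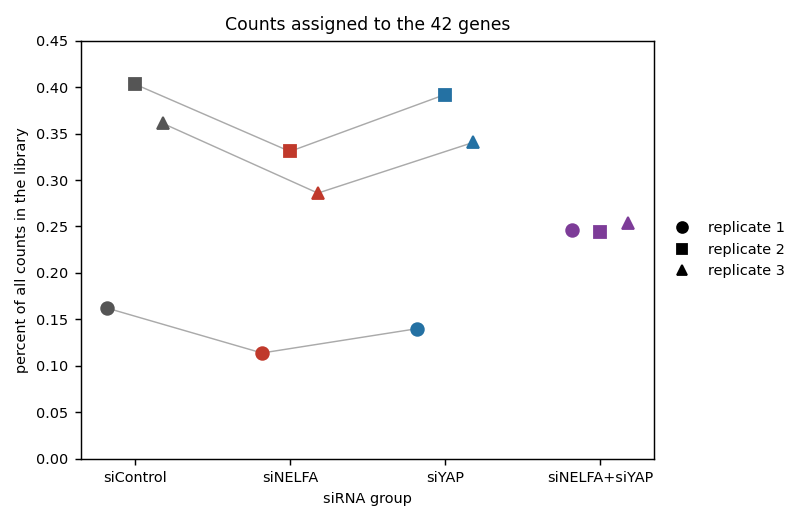
Percent of all counts in a library that fell on the 42 genes (y axis, from 0) by siRNA group (x axis), with 1 point per library, its shape giving the replicate number, and grey lines joining equal numbers of the first 3 groups. The siControl points sit at 0.162%, 0.403% and 0.361% and the siNELFA+siYAP points at 0.246%, 0.244% and 0.254%.

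Within siControl, 40 of the 42 genes were lower in replicate 1 than in both other replicates, where 46.0% of all 18525 genes tested were. The count was 41 in siNELFA (all genes 42.5%), 41 in siYAP (all genes 42.8%) and 21 in siNELFA+siYAP (all genes 35.1%). The median level of the genes in replicate 1 was 42.9% of the mean of replicates 2 and 3 (taken on the log2 scale) in siControl, 43.6% with siNELFA, 41.9% with siYAP and 97.4% with both siRNAs. The gap was deepest in the regulators E2F1, UHRF1 and CLSPN, at a median of 28.9% in siControl, and in licensing, at 33.8%, and shallowest in single-strand binding and flap processing, at 69.3%. RFC1, the large subunit of the clamp loader, went the other way in these 3 groups, being highest in replicate 1, and RPA3 did so in siControl. Of the related genes, the median in siControl was 52.4% for 21 genes of G1/S control and 75.6% for 15 genes of G2/M, so the gap was smaller there. The common biological coefficient of variation that edgeR estimated over genes averaging at least 50 counts was 0.324 in siControl, 0.308 in siNELFA and 0.318 in siYAP when replicate 1 was included, and 0.114, 0.140 and 0.131 without it, beside 0.0578 for the 3 siNELFA+siYAP libraries. Results are therefore given with and without replicate 1.

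**Figure D2:**
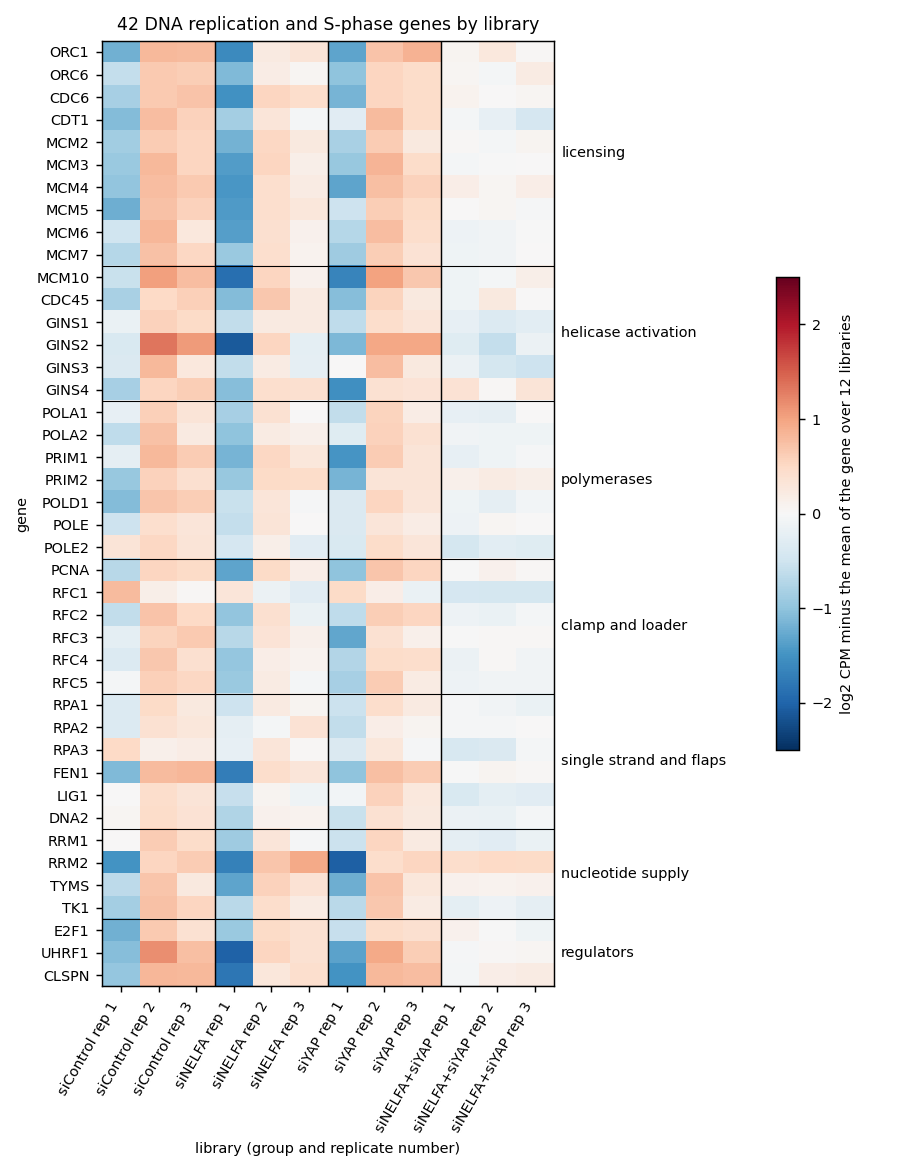
Heat map of the 42 genes (rows, by role) in the 12 libraries (columns, by group and replicate number), where colour is log2 CPM minus the gene's mean over the 12 libraries. Replicate 1 of siControl, siNELFA and siYAP is blue in nearly all rows, with RFC1 the opposite, and the siNELFA+siYAP columns are pale and alike.

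Levels between genes were compared by the authors' TPM, which are scaled by length. In siControl TYMS, thymidylate synthase, was highest at 158 ± 75.2 TPM (SD, n = 3), followed by MCM3 at 103 ± 52.04, RRM2 at 102 ± 60.1, MCM4 at 96.1 ± 45.8 and MCM7 at 90.1 ± 38.6. ORC1 at 6.89 ± 3.92 TPM and GINS3 at 5.99 ± 2.23 were lowest. Of the 41 neighbours in this order, 41 had overlapping ranges over the 3 siControl libraries, so no step between adjacent genes was larger than the spread. By role, the highest means over all 12 libraries were those of MCM3 in licensing, MCM10 in helicase activation, PRIM2 in the polymerases, PCNA in the clamp and loader, RPA1 in single-strand binding, TYMS in nucleotide supply and UHRF1 among the regulators. By position, 28 of the 42 genes overlap another annotated gene and 9 a protein-coding gene on the opposite strand (GENCODE release 44), as GINS2 does GSE1, RFC5 WSB2 and TYMS ENOSF1, and since the strand setting of the counting is not given, reads of such partners cannot be told apart.

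NELFA knockdown was compared with siControl to ask how these genes differ without it. Most of the set was lower in siNELFA, by a modest amount, in each pair of libraries of equal replicate number. Whether libraries other than replicate 1 belong together by number was not established. Between libraries of equal replicate number, 32 of the 42 genes had less RNA in siNELFA than in siControl in all 3 pairs and 0 were higher in all 3, where 21.7% of all genes were lower and 21.7% higher in all 3. The median difference of the 42 genes was -0.46, -0.33 and -0.34 log2 units in pairs 1, 2 and 3, a level of 72.9%, 79.8% and 78.99% of the paired control, beside all-gene medians within 0.01 log2 units of 0. The 10 genes that did not keep 1 direction over the pairs were CDT1, CDC45, PRIM2, POLD1, RPA2, RPA3, RRM2, TYMS, TK1 and E2F1.

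Without regard to the replicate number, edgeR's quasi-likelihood test called 0 of the 42 genes in siNELFA against siControl (adjusted p under 0.05 over 17727 genes), where 0.00564% of all genes were called. POLE2 alone was under 0.05 unadjusted (all genes 4.46%). DESeq2 (0.107% of all genes) also called 0. So did limma on log2(TPM + 1) and log2(TPM + 0.1), which called only 5 and 6 of all genes tested. POLE2 was also the 1 gene of the 42 whose siNELFA libraries all lay below all siControl libraries, where 5.84% of all genes did, so the groups overlapped for the other 41. The median log2 fold change was -0.36, with 41 estimates below 0 (50.0% of all genes) and RRM2 above it. On log2(TPM + 1) the median of all genes was itself at -0.17 and that of the 42 at -0.55, with all 42 below 0, RRM2 included. With the replicate number as a block, 10 of the 42 fell and 0 rose, where 2.45% of all genes fell and 5.21% were called in either direction. The 10 were GINS2, MCM10, UHRF1, RRM1, CLSPN, FEN1, RFC5, MCM4, MCM3 and LIG1. With the siYAP libraries added to that fit, 16 fell, where 3.11% of all genes did and 6.28% were called, the further genes being ORC6, MCM6, MCM7, POLE2, RFC2 and RFC4. Without replicate 1 in both groups and without the block, 0 were called (all genes 0.0996%, and 0.0332% lower) and 22 were under 0.05 unadjusted, all lower (all genes 14.3%), with a median of -0.32. Single libraries moved the unblocked median: it was -0.62 without siControl replicate 1, -0.12 without siControl replicate 2, -0.065 without siNELFA replicate 1 and -0.60 without siNELFA replicate 2.

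**Figure D3:**
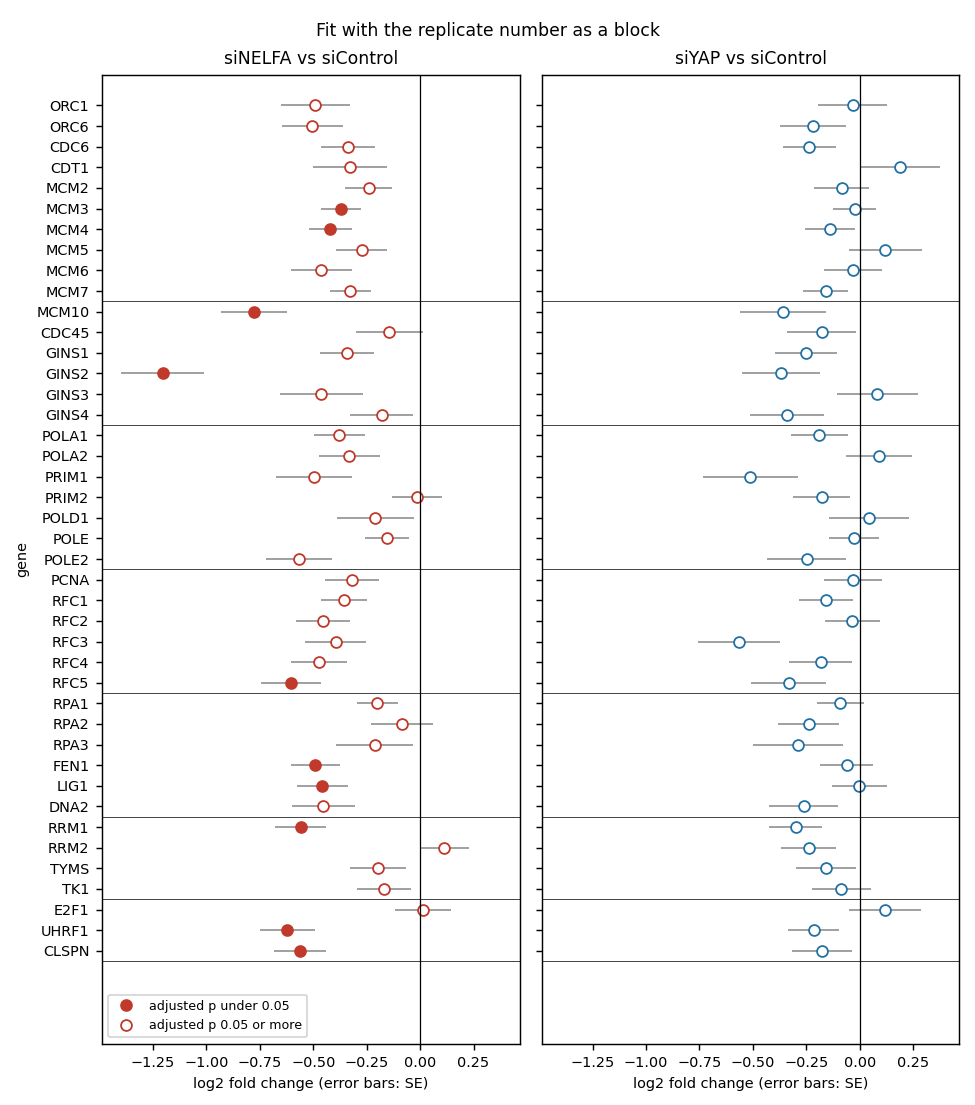
Log2 fold change of each of the 42 genes (rows, by role) against siControl with the replicate number as a block in the fit, for siNELFA (left) and siYAP (right), with the SE as error bars and filled points for adjusted p under 0.05. In siNELFA 10 points are filled, all below 0 and GINS2 farthest at -1.20, and in siYAP none is.

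The sequences before the start sites of these genes were searched as a description, since many genes of this kind are transcribed under E2F factors. Of the 42 genes, 36 had an entry in the RefSeq promoter table (GRCh38.p14), from which the 250 bases before the first listed start were read; MCM4, MCM5, GINS4, RPA2, RPA3 and DNA2 had none. The letters TTTCCCGC or TTTGGCGC, letters of known E2F sites, or the shorter TTCCCGC, which the first of them contains, were present on either strand in 16 of the 36 (44.4%) and in 6.07% of all 27305 windows of that length. CCAAT, the NF-Y box, was in 22 of the 36 (61.1%, all windows 33.0%), and TTTGAA, the core of the CHR element, in 1 (RRM1; all windows 13.6%). In the G2/M list the same counts were 0, 12 and 7 of 13 windows. The E2F letters were in 12.5% of windows of other replisome genes, 9.09% of other nucleotide supply, 23.5% of G1/S control and 22.2% of S-phase chromatin. CCAAT was in 54.2%, 36.4%, 23.5% and 55.6% of these. The windows were not matched for base composition. Of the 10 genes that fell with the block in siNELFA, 9 had an entry and 5 of these held the E2F letters, beside 11 of the other 27. MCM10, FEN1, RFC5 and CLSPN fell with the block and lack these letters, while PCNA, TYMS and E2F1, among others, hold them and were not called. Shown here as examples are 3 genes that fell with the block and hold E2F letters, in capitals on whichever strand they were found. RRM2, which did not fall and holds no E2F letters, is also shown, and its capitals mark CCAAT. Each runs 5′ to 3′ on the strand of the gene and ends at the base before the start.
GINS2 (chr16:85688955-85689204, minus strand): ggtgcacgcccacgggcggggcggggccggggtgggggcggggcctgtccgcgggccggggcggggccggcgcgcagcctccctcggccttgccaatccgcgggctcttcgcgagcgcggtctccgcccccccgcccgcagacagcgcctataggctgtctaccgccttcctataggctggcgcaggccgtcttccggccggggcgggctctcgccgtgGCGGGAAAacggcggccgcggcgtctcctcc
MCM3 (chr6:52284743-52284992, minus strand): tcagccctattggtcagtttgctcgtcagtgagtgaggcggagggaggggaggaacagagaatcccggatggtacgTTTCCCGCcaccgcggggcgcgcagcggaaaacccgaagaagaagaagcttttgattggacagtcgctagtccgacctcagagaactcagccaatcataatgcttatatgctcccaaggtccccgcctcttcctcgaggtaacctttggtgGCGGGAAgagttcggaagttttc
LIG1 (chr19:48170345-48170594, minus strand): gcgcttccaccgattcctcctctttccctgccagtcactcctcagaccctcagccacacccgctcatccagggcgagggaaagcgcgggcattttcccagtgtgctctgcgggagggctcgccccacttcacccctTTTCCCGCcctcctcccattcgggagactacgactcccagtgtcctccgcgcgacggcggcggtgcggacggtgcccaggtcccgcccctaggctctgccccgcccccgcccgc
RRM2 (chr2:10122489-10122738, plus strand): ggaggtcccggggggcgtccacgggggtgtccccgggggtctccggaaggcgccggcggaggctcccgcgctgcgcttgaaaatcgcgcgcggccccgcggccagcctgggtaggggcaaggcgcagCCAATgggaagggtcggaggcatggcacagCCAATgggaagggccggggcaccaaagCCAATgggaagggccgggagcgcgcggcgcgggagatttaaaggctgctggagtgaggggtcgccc
The E2F letters of GINS2 lie 31 to 24 bases before the start, those of MCM3 at 174 to 167 and 23 to 17, and those of LIG1 at 114 to 107, while the 3 CCAAT boxes of RRM2 lie at 123 to 119, 93 to 89 and 66 to 62. A match is a description of letters and not a bound site, and nothing was measured here at these promoters.

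Of the 10 licensing genes 9 were lower in siNELFA in all 3 pairs, and MCM3 and MCM4 fell with the block. All 10 had a negative log2 fold change in that fit. Values after ± on the log2 scale are SEs of the edgeR fits. MCM3, a subunit of the helicase ring (GRCh38, chromosome 6:52264014-52284881), was at 95.2, 321 and 263 CPM with siControl, 69.2, 264 and 202 with siNELFA, 94.4, 329 and 248.8 with siYAP and 176, 180.1 and 184 with both siRNAs. Each siNELFA library lay below the siControl library of its number, while the ranges of the groups overlapped. With the block its log2 fold change was -0.37 ± 0.094, adjusted p = 0.0404, against -0.34 ± 0.56, adjusted p = 1.00, without it. MCM4, another ring subunit, was at 60.5, 207 and 191 CPM with siControl, 44.2, 161 and 139 with siNELFA, 48.5, 203 and 180.4 with siYAP and 135, 125 and 136 with both siRNAs, and its blocked change was -0.42 ± 0.099, adjusted p = 0.0275. MCM2 was at 40.8, 116 and 108 CPM with siControl, 32.7, 106 and 88.4 with siNELFA, 42.6, 116 and 88.7 with siYAP and 76.2, 71.8 and 78.03 with both siRNAs. It had the smallest blocked change of the group, -0.24 ± 0.11, adjusted p = 0.238. ORC1, the largest subunit of the origin recognition complex, was at 6.93, 28.1 and 27.8 CPM with siControl, 5.33, 18.6 and 20.02 with siNELFA, 6.44, 26.4 and 29.3 with siYAP and 16.9, 19.3 and 16.5 with both siRNAs. It had the lowest log2 fold change of licensing without the block, -0.51 ± 0.62, adjusted p = 1.00, and -0.49 ± 0.16, adjusted p = 0.0999 with it. CDC6, which brings the helicase to origins, was at 39.4, 111 and 116 CPM with siControl, 24.7, 103 and 94.9 with siNELFA, 31.4, 102 and 97.03 with siYAP and 74.8, 71.3 and 72.9 with both siRNAs, and its blocked adjusted p was 0.146. CDT1, the loading factor that geminin holds back outside G1, was at 11.5, 41.3 and 36.2 CPM with siControl, 13.5, 29.9 and 23.4 with siNELFA, 20.01, 41.9 and 33.2 with siYAP and 23.5, 20.97 and 18.1 with both siRNAs. It was above siControl in pair 1 and below it in pairs 2 and 3. The other 4 genes, ORC6, MCM5, MCM6 and MCM7, had blocked log2 fold changes of -0.51, -0.27, -0.46 and -0.33.

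Helicase activation held the largest change of the set. GINS2, a subunit of the GINS complex (GRCh38, chromosome 16:85676198-85690073), was at 9.31, 30.8 and 25.4 CPM with siControl, 2.82, 17.6 and 10.2 with siNELFA, 5.58, 23.7 and 23.8 with siYAP and 9.85, 8.02 and 11.02 with both siRNAs. Its promoter is among those printed above. It was lower in siNELFA than in siControl in every pair, with differences of -1.68, -0.80 and -1.30 log2 units, and replicate 1 of siNELFA, with 36 counts, was the lowest count of any of the 42 genes in any library. The blocked log2 fold change was -1.20 ± 0.20, adjusted p = 0.00473, a level of 43.4% of siControl, against -1.09 ± 0.66, adjusted p = 1.00 without the block. MCM10, which binds the helicase and polymerase alpha, was at 29.03, 87.03 and 73.7 CPM with siControl, 11.69, 61.9 and 46.5 with siNELFA, 13.7, 85.96 and 68.2 with siYAP and 39.7, 41.4 and 47.3 with both siRNAs. It fell to 58.3% of siControl with the block (log2 -0.78 ± 0.15, adjusted p = 0.0129). CDC45, the partner of GINS in the active helicase, was at 13.1, 32.5 and 34.7 CPM with siControl, 10.9, 36.5 and 26.8 with siNELFA, 11.1, 34.03 and 27.1 with siYAP and 21.4, 27.3 and 23.2 with both siRNAs. It was not lower in all pairs, and its blocked change was -0.14 ± 0.16, adjusted p = 0.664. GINS3 was at 6.499, 14.6 and 10.1 CPM with siControl, 5.49, 9.63 and 7.17 with siNELFA, 8.46, 14.3 and 9.93 with siYAP and 7.62, 6.15 and 5.86 with both siRNAs, with -0.46 ± 0.19, adjusted p = 0.200 with the block. GINS4 was at 11.2, 29.1 and 30.6 CPM with siControl, 9.57, 26.6 and 26.5 with siNELFA, 6.92, 26.1 and 25.5 with siYAP and 25.5, 20.5 and 24.8 with both siRNAs, and its change was -0.18 ± 0.15, adjusted p = 0.547. Within 1 complex of 4 subunits the blocked change ran from -1.20 for GINS2 to -0.18 for GINS4, with GINS1 at -0.34. The difference between subunits was not tested.

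**Figure D4:**
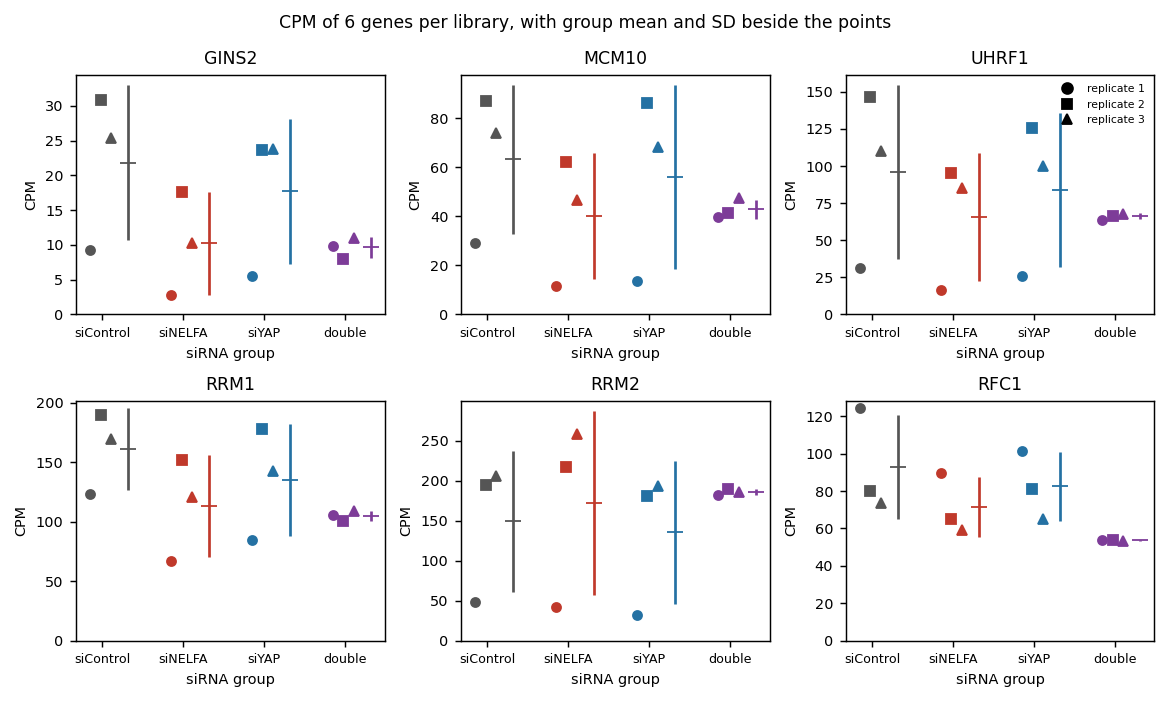
CPM (y axis, from 0) of GINS2, MCM10, UHRF1, RRM1, RRM2 and RFC1 in each library by siRNA group, with the replicate number as the shape of the point and the group mean and SD beside it; "double" is siNELFA+siYAP. GINS2 runs from 2.82 to 30.8 CPM over the libraries, RFC1 is highest in replicate 1 of the first 3 groups, and the siNELFA+siYAP points are close together in all 6 plots.

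All 7 polymerase and primase genes had a negative log2 fold change in siNELFA, and 0 of the 7 fell with the block. POLE2, the second subunit of polymerase epsilon, was at 23.6, 26.9 and 23.7 CPM with siControl, 14.1, 20.8 and 15.5 with siNELFA, 14.4, 26.04 and 23.3 with siYAP and 13.8, 15.7 and 15.3 with both siRNAs. Its change without the block was -0.55 ± 0.22, adjusted p = 1.00 (unadjusted p = 0.0349), and -0.57 ± 0.15, adjusted p = 0.0536 with it. PRIM1, the catalytic subunit of primase, was at 11.9, 24.4 and 21.4 CPM with siControl, 6.196, 19.7 and 16.7 with siNELFA, 5.001, 21.5 and 17.3 with siYAP and 11.9, 12.9 and 13.6 with both siRNAs, with a blocked change of -0.49 ± 0.18, adjusted p = 0.133. PRIM2, its large subunit, was at 27.4, 78.7 and 68.99 CPM with siControl, 27.4, 73.1 and 72.1 with siNELFA, 23.7, 66.1 and 65.96 with siYAP and 57.1, 60.8 and 58.5 with both siRNAs. Its blocked change of -0.013 ± 0.12, adjusted p = 0.967 was the smallest of the polymerases, and siNELFA was above siControl in pair 3. POLA2, the second subunit of polymerase alpha, was at 19.7, 50.4 and 35.7 CPM with siControl, 15.1, 35.3 and 33.05 with siNELFA, 24.5, 45.2 and 39.7 with siYAP and 28.8, 28.3 and 28.1 with both siRNAs, and all 3 pairs were lower in siNELFA. The catalytic subunits POLA1, POLD1 and POLE had blocked log2 fold changes of -0.38, -0.21 and -0.16.

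The clamp and its loader were lower in siNELFA in all 3 pairs for 6 of 6 genes, and RFC5 fell with the block. PCNA, the sliding clamp, was at 43.6, 104 and 99.5 CPM with siControl, 28.3, 98.7 and 80.03 with siNELFA, 35.3, 114 and 103 with siYAP and 70.3, 76.5 and 72.9 with both siRNAs. Its blocked change was -0.32 ± 0.13, adjusted p = 0.168. RFC5, a small subunit of the loader, was at 33.1, 52.2 and 48.96 CPM with siControl, 17.96, 39.4 and 33.05 with siNELFA, 19.2, 53.7 and 39.9 with siYAP and 31.6, 32.5 and 32.5 with both siRNAs. It fell to 65.8% of siControl with the block (log2 -0.60 ± 0.14, adjusted p = 0.0258). RFC1, whose replicates ran opposite to the rest of the set, was at 125, 79.9 and 73.6 CPM with siControl, 89.9, 65.1 and 59.4 with siNELFA, 102, 81.3 and 64.9 with siYAP and 53.8, 53.7 and 53.2 with both siRNAs. Even so it was lower in siNELFA than in siControl in each pair, with differences of -0.47, -0.29 and -0.31 log2 units, with a blocked change of -0.36 ± 0.11, adjusted p = 0.0773. RFC3 was at 19.8, 34.5 and 36.7 CPM with siControl, 14.5, 29.6 and 25.4 with siNELFA, 9.43, 30.5 and 25.3 with siYAP and 23.2, 23.8 and 23.7 with both siRNAs, and RFC2, RFC3 and RFC4 had blocked changes of -0.45, -0.40 and -0.47.

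Of the 6 genes of single-strand binding and flap processing, FEN1 and LIG1 fell with the block. FEN1, the flap endonuclease, was at 31.3, 117 and 120.2 CPM with siControl, 20.5, 91.4 and 83.05 with siNELFA, 33.4, 113 and 105 with siYAP and 66.9, 70.9 and 69.1 with both siRNAs. It fell to 71.2% of siControl (log2 -0.49 ± 0.11, adjusted p = 0.0254). LIG1, the ligase that seals the lagging strand, was at 55.2, 74.3 and 69.1 CPM with siControl, 36.9, 57.9 and 50.8 with siNELFA, 52.2, 82.3 and 66.3 with siYAP and 41.97, 46.3 and 45.1 with both siRNAs. Its 3 siNELFA libraries lay below all 3 siControl libraries except for 1 overlap, siNELFA replicate 2 being above siControl replicate 1, and the blocked change was -0.46 ± 0.12, adjusted p = 0.0429. The 3 subunits of the single-strand binding protein RPA had the smallest blocked changes of the 6, and none passed the test. RPA1 was at 104, 183 and 155 CPM with siControl, 91.4, 154 and 138 with siNELFA, 90.8, 178 and 153 with siYAP and 129, 124 and 118 with both siRNAs. RPA2 was at 26.3, 43.8 and 40.99 CPM with siControl, 28.8, 32.4 and 42.8 with siNELFA, 21.9, 37.4 and 35.3 with siYAP and 32.7, 32.99 and 33.7 with both siRNAs. RPA3 was at 26.1, 20.1 and 20.9 CPM with siControl, 16.1, 22.7 and 18.8 with siNELFA, 14.3, 22.6 and 18.1 with siYAP and 13.99, 14.4 and 17.9 with both siRNAs. RPA1 was lower in siNELFA in all 3 pairs, and RPA2 and RPA3 were not. Their blocked log2 fold changes were -0.20 ± 0.097, -0.085 ± 0.15 and -0.21 ± 0.18, with adjusted p of 0.272, 0.805 and 0.563. DNA2, a second flap nuclease, was at -0.45, with an adjusted p of 0.0986.

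In nucleotide supply RRM1 fell with the block, the other 3 genes did not pass that test, and none was called without the block. RRM1, the large subunit of ribonucleotide reductase, was at 123, 190.3 and 169.7 CPM with siControl, 66.7, 152 and 121 with siNELFA, 84.3, 178 and 143 with siYAP and 105, 101 and 109 with both siRNAs. It was below siControl in every pair and fell to 67.9% with the block (log2 -0.56 ± 0.12, adjusted p = 0.0174). RRM2, the small subunit of the same enzyme (GRCh38, chromosome 2:10120698-10211725), was at 47.7, 194 and 206 CPM with siControl, 41.4, 217 and 258 with siNELFA, 32.5, 181 and 193 with siYAP and 182, 189.8 and 186 with both siRNAs. It was below siControl in pair 1 and above it in pairs 2 and 3, with a blocked change of 0.11 ± 0.11, adjusted p = 0.639. TYMS, which makes thymidylate, was at 86.6, 221 and 162 CPM with siControl, 55.1, 205 and 177 with siNELFA, 58.96, 225 and 166 with siYAP and 147, 145 and 148 with both siRNAs. Its blocked change was -0.20 ± 0.13, adjusted p = 0.450, and that of TK1, thymidine kinase, was -0.17 ± 0.13, adjusted p = 0.510. Of the 4 genes only RRM1 was lower in all 3 pairs.

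Among the regulators, UHRF1 and CLSPN fell with the block and E2F1 did not. UHRF1, which brings the maintenance DNA methyltransferase to hemimethylated DNA behind the fork, was at 31.4, 146 and 110.2 CPM with siControl, 16.2, 95.2 and 85.4 with siNELFA, 25.8, 126 and 99.8 with siYAP and 63.9, 66.5 and 67.9 with both siRNAs. Its blocked change was -0.62 ± 0.13, adjusted p = 0.0159, a level of 65.02% of siControl. CLSPN, claspin, the fork mediator of the checkpoint kinase CHK1, was at 33.4, 117 and 115 CPM with siControl, 18.7, 80.3 and 88.3 with siNELFA, 23.3, 115 and 112 with siYAP and 63.2, 74.00 and 75.6 with both siRNAs. Its blocked change was -0.56 ± 0.12, adjusted p = 0.0192. E2F1, the transcription factor that activates many genes of this set, was at 19.3, 70.1 and 57.9 CPM with siControl, 23.3, 61.8 and 57.7 with siNELFA, 29.8, 61.1 and 58.5 with siYAP and 47.8, 44.2 and 41.1 with both siRNAs. Its 3 pairs differed by 0.27, -0.18 and -0.0044 log2 units, and the blocked change was 0.014 ± 0.13, adjusted p = 0.968.

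YAP knockdown, compared with siControl in the same way, gave no called gene among the 42. Of the 42 genes, 20 were lower in siYAP than in siControl in all 3 pairs and 0 were higher in all 3, where 18.1% of all genes were lower and 17.9% higher. The median of the 42 genes was -0.29, -0.082 and -0.11 log2 units in pairs 1, 2 and 3, and the difference was largest in the pair with the lowest levels. None of the 42 was called by edgeR without the block (0 unadjusted, all genes 1.30%) or with it (3 unadjusted, PRIM1, RFC3 and RRM1, all genes 9.11%). Of all genes 0.00578% and 0.0173% were called without and with the block. DESeq2 also called 0 (all genes 0.00314%). So did limma on log2(TPM + 1) and log2(TPM + 0.1), which called only 1 and 5 of all genes tested. RFC3 had the lowest blocked change, -0.57 ± 0.19, adjusted p = 0.525, followed by PRIM1 at -0.51 ± 0.22, adjusted p = 0.544. CDT1 and MCM5 had the highest, 0.19 ± 0.19, adjusted p = 0.736, and 0.12 ± 0.17, adjusted p = 0.811. GINS2 was at -0.37 ± 0.18, adjusted p = 0.563. By role the blocked medians ran from -0.30 in helicase activation to -0.059 in licensing. The direction of the unblocked median of -0.14 rested on single libraries: it was 0.11 without siControl replicate 2 and 0.17 without siYAP replicate 1. Without replicate 1 in both groups it was -0.096. The siNELFA and siYAP comparisons share the siControl libraries.

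Set directly against siYAP, siNELFA was the lower. In all 3 pairs 28 of the 42 genes were lower in siNELFA (all genes 23.9%) and 4 were higher (all genes 23.1%), and the median difference was -0.22, -0.23 and -0.23 log2 units. The 4 higher genes were GINS4, PRIM2, RPA3 and RRM2. Without the block 0 genes were called and 0 were under 0.05 unadjusted (5.63% of all genes), and 0.0116% of all genes were called. DESeq2 also called 0 (all genes 0.164%). The unblocked median of -0.25 turned to 0.064 without siNELFA replicate 1 and to 0.02 without siYAP replicate 2. With the block 17 fell and RRM2 rose, where 7.44% of all genes fell and 15.8% were called in either direction. The blocked change was -0.84 ± 0.18, adjusted p = 0.00199 for GINS2, -0.51 ± 0.12, adjusted p = 0.00546 for CDT1, -0.46 ± 0.098, adjusted p = 0.00212 for LIG1 and 0.35 ± 0.085, adjusted p = 0.00580 for RRM2. With siControl added to the blocked fit, a choice made after seeing the data, GINS2, LIG1, MCM3 and FEN1 were under 0.05 (6.57% of all genes) and RRM2 had an adjusted p of 0.0728. In the 6-library blocked fit the large subunit RRM1 was at -0.26 ± 0.085, adjusted p = 0.0375, so the subunits of ribonucleotide reductase had opposite signs. With siControl added the adjusted p of RRM1 was 0.195, so neither subunit was under 0.05 in that fit. The difference between RRM1 and RRM2 was not tested.

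The double knockdown gave tight replicates that lay below 2 of the 3 controls. All 42 genes were lower in each siNELFA+siYAP library than in siControl replicates 2 and 3, where 25.2% of all genes were, and 31 of the 42 were at the same time above siControl replicate 1, where 8.44% of all genes were. The median of the 42 genes, siNELFA+siYAP mean minus control library, was 0.60 log2 units against replicate 1, -0.73 against replicate 2 and -0.56 against replicate 3. The sign of the difference turned with the control library. The 3 siNELFA+siYAP libraries lay below all 3 siControl libraries for 8 of the 42 genes, where 13.7% of all genes did. These were GINS1, POLE2, RFC1, RFC5, RPA3, LIG1, DNA2 and RRM1.

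**Figure D5:**
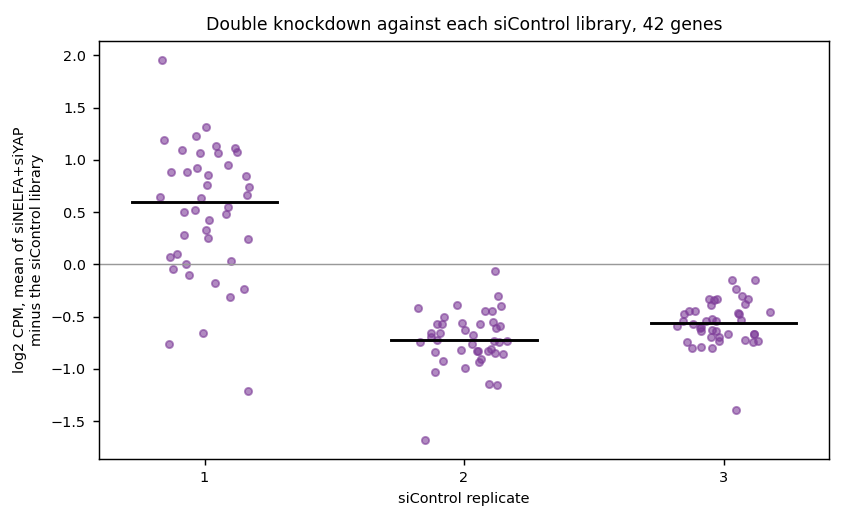
Mean log2 CPM of the 3 siNELFA+siYAP libraries minus log2 CPM of 1 siControl library (y axis) for each of the 42 genes (points, spread sideways at random), by siControl replicate (x axis), with the median as a bar. The medians are 0.60, -0.73 and -0.56, and every point lies below 0 against replicates 2 and 3.

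In the fit of siNELFA+siYAP against siControl, 0 of the 42 genes were called by edgeR and 9 were under 0.05 unadjusted, all lower, where 0.428% of all genes were called and 18.5% were under 0.05 unadjusted. The median was -0.38, with 41 estimates below 0 (all genes 52.6%) and RRM2 above it. POLE2 came nearest, at -0.74 ± 0.14, adjusted p = 0.0741, followed by LIG1 at -0.59 ± 0.14, adjusted p = 0.106, RRM1 at -0.63 ± 0.16, adjusted p = 0.119 and RFC1 at -0.80 ± 0.21, adjusted p = 0.124. GINS2 had the largest change, -1.20 ± 0.40, adjusted p = 0.192. DESeq2 called 5 genes, all lower, where it called 5.88% of all genes: POLE2 (adjusted p = 0.00849), RFC1 (0.0269), LIG1 (0.0388), RRM1 (0.0441) and GINS2 (0.0477).

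How many genes were called in the double knockdown turned on siControl replicate 1. Without it 41 of the 42 genes fell, where 12.9% of all genes fell and 24.4% were called in either direction, and the median was -0.65. Without replicate 1 in both groups 39 fell (all genes 9.57%, and 17.9% in either direction). Without siControl replicate 2 it was 0 of 42, where 2 of all 17760 genes were called, with a median of -0.11. Without siControl replicate 3 it was also 0, where 126 of all 17768 genes were called, with a median of -0.24. RRM2 was the exception, at -0.11 ± 0.058, adjusted p = 0.189 in the fit without siControl replicate 1. There GINS2 was at -1.54 ± 0.15, adjusted p = 4.65e-06, UHRF1 at -0.96 ± 0.098, adjusted p = 6.12e-06, GINS3 at -0.93 ± 0.20, adjusted p = 0.00285, MCM10 at -0.91 ± 0.098, adjusted p = 1.03e-05 and CDT1 at -0.91 ± 0.12, adjusted p = 7.67e-05. These p-values rest on siControl replicates 2 and 3 alone and on the spread of siNELFA+siYAP, which may be technical. By role the median in that fit was lowest in helicase activation at -0.85 and highest in single-strand binding and flap processing at -0.49. Replicate 1 stood apart in MALAT1, CDH1 and the luminal markers as described above. CD68 carried nearly all of the summed leukocyte and endothelium markers (6 genes). The sum was at 126 to 155 TPM in siNELFA+siYAP against 77.6 to 81.0 in siControl, 92.4 to 119 in siNELFA and 93.0 to 117 in siYAP. The part of either in the result was not tested.

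Against the single knockdowns the counts again turned on replicate 1. In siNELFA+siYAP against siNELFA the median was 0.0057, 0 of the 42 genes were called (all genes 0.00573%) and RFC1 alone was under 0.05 unadjusted (all genes 6.62%). Without siNELFA replicate 1 the median was -0.33 and 6 fell (all genes 0.766%, and 1.25% in either direction): CDC6, GINS1, RRM2, TYMS, TK1 and UHRF1, with log2 fold changes of -0.44, -0.50, -0.36, -0.39, -0.53 and -0.45. In siNELFA+siYAP against siYAP the median was -0.25, 0 were called (all genes 0.0350%), and GINS3, RFC1 and LIG1 were under 0.05 unadjusted (all genes 15.5%). Without siYAP replicate 1 the median was -0.55 and 35 fell (all genes 8.56%, and 16.5% in either direction), and without siYAP replicate 2 the median was 0.017. Without replicate 1 in both groups 26 fell (all genes 4.16%, and 7.70% in either direction). DESeq2 called 0 of the 42 in both comparisons, where it called 0.270% of all genes against siNELFA and 3.01% against siYAP. The interaction term, which asks whether the change with siNELFA differed between cells with and without siYAP, was called for 0 of the 42 genes (0% of all 18525), with 0 of the 42 under 0.05 unadjusted (1.76% of all genes) and 0 called by DESeq2. Its estimates ran from -0.25 to 0.50 log2 units. With SEs of 0.90 for GINS2 and 0.43 for RRM1, this does not show that the effects add.

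Related genes outside the set were read from 5 lists of 88 genes, all of which were found. In siNELFA against siControl with the block, 4 of 28 other replisome genes fell and 1 rose, 0 of 14 other nucleotide supply genes were called, 3 of 21 genes of G1/S control fell and 2 rose, 2 of 10 genes of S-phase chromatin fell, and 6 of 15 genes of G2/M fell, where 2.45% of all genes fell and 5.21% were called in either direction. Their medians were -0.28, -0.091, -0.083, -0.33 and -0.37, beside -0.36 for the 42 genes. CDKN1A, which encodes the cyclin-dependent kinase inhibitor p21, rose on the log2 scale by 1.23 ± 0.13 (adjusted p = 3.85e-04), and SKP2, a ubiquitin ligase subunit that marks p27 for destruction, changed by -1.04 ± 0.14 (adjusted p = 0.00210). ATAD5, the PCNA unloader, was at -0.86 (adjusted p = 0.00549), DONSON, a factor of helicase assembly, at -0.72 (0.0101), and POLD4, the small subunit of polymerase delta, at 0.69 (0.0129), in the direction opposite to the set. CHAF1A and CHAF1B, subunits of the chromatin assembly factor that works with PCNA, were at -0.56 and -0.62 (adjusted p = 0.0221 and 0.0284). KIF11, the spindle motor, and TOP2A were at -0.74 and -0.46 (adjusted p = 0.00342 and 0.0176). Without the block 0 of the 88 genes were called in siNELFA, and 5 were under 0.05 unadjusted (all genes 4.46%): CDKN1A, KIF11, TOP2A, DONSON and POLD4. In siYAP 0 of the 88 were called with or without the block. CDKN1A was at 0.61 there (adjusted p = 0.525).

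In siNELFA+siYAP against siControl KIF11 was the 1 called gene of the 88 (all genes 0.428%), at -1.06 ± 0.13 (adjusted p = 0.0372), and CDKN1A was at 1.52 ± 0.29 (adjusted p = 0.0735). The G2/M list had the lowest median there, -0.63, with 12 of 15 genes under 0.05 unadjusted, beside -0.38 and 9 of 42 for the replication genes, where 18.5% of all genes were under 0.05 unadjusted. Without siControl replicate 1, 14 of the 15 G2/M genes, 17 of 28 other replisome genes and 8 of 10 genes of S-phase chromatin fell, where 12.9% of all genes fell and 24.4% were called in either direction.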

How the data were processed

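Total RNA of 12 samples (RNA integrity number of at least 7) was depleted of ribosomal RNA and sequenced as stranded paired-end libraries. The authors used STAR with GRCh38 and Ensembl release 87 annotation, and they deposited raw read counts per gene from featureCounts, whose strand setting and version are not given in the sources used here, and deposited TPM, which are scaled by gene length (Cufflinks is named among the tools). A table of FPKM was not used, since it holds the TPM values on another scale. Of gene counts from 1 to 20, 80.7% were even, against 50.6% above 100, as where both reads of a pair are counted, so intervals that take each count as independent are too narrow.

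The counts were tested with edgeR 4.0.16 in R 4.3.3 (TMM factors, filterByExpr with a minimum count of 10, quasi-likelihood test, Benjamini-Hochberg adjustment over all genes tested, threshold 0.05), fitted on the 6 libraries of the groups compared, and on all 12 for the interaction. CPM of single libraries carry TMM factors over all 12 libraries, and log2 CPM a prior count of 2. Alternatives were DESeq2 1.42.0, limma 3.58.1 on log2(TPM + 1) and log2(TPM + 0.1), RLE factors, other filters, 1 fit of all libraries, a replicate block and leaving out libraries. The fits were tested on simulated data. Equal replicate numbers of siControl, siNELFA and siYAP were treated as pairs because the deviations of their libraries from the group means correlated at 0.642 to 0.886 over 12971 genes averaging at least 50 counts, while those with siNELFA+siYAP correlated at -0.0523 to 0.0256. Replicate 1 stood apart in siControl, siNELFA and siYAP, which alone can make the centred deviations of the remaining libraries correlate between groups. Only equal numbers were correlated. The check therefore cannot show that the remaining libraries pair by number, as the pairs and the block assume. The labels do not say what a number stands for.

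Values in every library were to be given for the gene with the largest and the gene with the smallest log2 fold change of each role in each knockdown against siControl and for the gene with the highest mean TPM of each role. Genes named from the related lists were among the 3 with the smallest unblocked p of their list in a comparison with siControl. Not all of these were named, and those given blocked values in siNELFA had an adjusted p under 0.05 in that fit. The values in every library of CLSPN, and lists of the genes that passed a test or went against the rest, were added after their values were seen. The 42 genes, their roles and the related lists were chosen with earlier results of these data known. Gene positions come from GENCODE release 44 and promoter sequences from RefSeq (GRCh38.p14), both on the authors' genome build. Python 3.11.15 with pandas 2.3.3 and matplotlib 3.10.9 made the summaries and plots.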

Additional observations from a re-analysis of the deposited data

How the results depend on the processing

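The counts of called genes depended on the replicate number and on replicate 1. In siNELFA against siControl, where 0 of the 42 genes were called, the replicate block called 10 (5.21% of all genes) and the block over 9 libraries 16 (6.28%). In siNELFA against siYAP (0 called) the block called 18 (15.8% of all genes) and the block over 9 libraries 4 (6.57%). In siNELFA+siYAP against siControl (0 called) DESeq2 called 5 (5.88% of all genes). The fit without siControl replicate 1 called 41 (24.4% of all genes) and that without replicate 1 in both groups 39 (17.9%). The block in all 6 libraries of these groups called 0 (0.0114% of all genes), with a median of -0.26. In siNELFA+siYAP against siNELFA (0 called) 6 were called without siNELFA replicate 1 (1.25% of all genes). In siNELFA+siYAP against siYAP (0 called) it was 35 without siYAP replicate 1 (16.5% of all genes) and 26 without replicate 1 in both groups (7.70%). The block changed no other call: it called 0 in siYAP against siControl (0.0173% of all genes) and in the interaction (0%). It also called 0 in siNELFA+siYAP against siNELFA (0.00573%) and against siYAP (0.00583%). The numbers of siNELFA+siYAP do not pair with those of the other groups. For the called counts, why the settings differ was not tested. The block over 9 libraries for siNELFA against siYAP, and leaving out a replicate number from both groups in the 3 comparisons among the knockdowns, were chosen after seeing the data.

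Leaving out libraries gave 0 called genes in siNELFA and in siYAP against siControl, in siNELFA against siYAP and in the interaction. For siNELFA+siYAP it gave 0 to 41 against siControl (24.4% of all genes at 41), 0 to 6 against siNELFA (1.25% at 6) and 0 to 35 against siYAP (16.5% at 35). Against siControl the medians then ran from -0.62 to -0.06 for siNELFA, from -0.42 to 0.17 for siYAP and from -0.65 to -0.11 for both siRNAs together, from -0.51 to 0.06 in siNELFA against siYAP, from -0.33 to 0.28 in siNELFA+siYAP against siNELFA and from -0.55 to 0.02 against siYAP. Their sign turned in 2 of 9 such fits for siYAP against siControl, 2 for siNELFA against siYAP, 3 for siNELFA+siYAP against siNELFA and 2 against siYAP. Over the other alternatives the medians against siControl stayed between -0.60 and -0.35 for siNELFA, -0.23 and -0.14 for siYAP and -0.43 and -0.26 for both. Of 4242 values of single genes under alternatives, 553 had the opposite sign. In 3 of these the gene was also called: RRM2 (log2 fold change -0.36), TYMS (-0.39) and UHRF1 (-0.45), which had positive estimates in siNELFA+siYAP against siNELFA with all libraries, fell without siNELFA replicate 1. Leaving out libraries gave them at most 0.52, 0.34 and 0.37.

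The SE of MCM3 in siNELFA against siControl was 0.56 without the block and 0.094 with it. The lowest count of any of the 42 genes was 36.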
